A study of Mus musculus with 1 sample.

Results

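A set of 9 enzymes and cofactors that write, copy or oxidise DNA methylation was followed by gene symbol in single cells of the early postnatal mouse testis: Dnmt1, Uhrf1 and Hells, which are tied to DNA replication, Dnmt3a, Dnmt3b and Dnmt3l, which serve de novo methylation, and Tet1, Tet2 and Tet3, which oxidise 5-methylcytosine. All 9 symbols were found once among the 27998 genes listed. Over all germ cells together, Hells, Dnmt1 and Uhrf1 were far above their somatic levels. Among germ classes they were at their lowest in progenitor-like cells, where Dnmt1 and Uhrf1 came nearer to the somatic levels. Dnmt3b was highest in differentiating-like cells led by Kit, a class whose boundary depended on the clustering. Tet3 was higher in progenitor-like and differentiating-like than in SSC-like cells. However, 51 cells of low RNA content among those led by Kit held 0 Tet3 UMIs. Dnmt3a differed little between SSC-like, progenitor-like and Kit-rich cells, and Tet1, Tet2 and Dnmt3l were close to or at 0.

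When DNA is copied, the daughter strand starts without methyl groups. Uhrf1 protein recognises the hemimethylated CpG and recruits Dnmt1, the maintenance methyltransferase, while the SNF2-family remodeller Hells opens chromatin for this step. Dnmt3a and Dnmt3b methylate CpGs that carried no mark, Dnmt3l is their catalytically inactive partner in fetal prospermatogonia, and the Tet dioxygenases convert 5-methylcytosine to 5-hydroxymethylcytosine, from which the mark is lost by dilution or base excision repair. The genome-wide methylation of male germ cells is laid down before birth, so postnatal spermatogonia mainly have to keep it through many divisions.

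The data are 1 single-cell RNA-seq library (10x Genomics Chromium, which counts transcripts at their 3' ends by unique molecular identifiers, UMIs) of wild-type C57BL/6 mice at postnatal day 8. THY1+ spermatogonia were enriched with magnetic beads from the testes of 3 mice and pooled in equal cell numbers. Unselected testis cells were added, in an amount that is not given. The Zscan2-KO library of the study is not analysed here. With 1 library there is no replicate, no test and no p-value: the 95% intervals are exact and hold counting error alone, and a difference called beyond counting error may still lie within the spread between animals.

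The library held 970 barcodes with 11358045 UMIs, 2655 to 44915 per barcode. Of these, 920 were kept, 324 in germ and 596 in somatic clusters. The germ cells fell into 112 SSC-like cells (SSC, spermatogonial stem cell, led by Nefm, Lhx1 and Bcl6b), 79 progenitor-like cells led by Neurog3, and 133 differentiating-like cells, of which 101 were led by Kit and Lmo1 and 32, called late, by Prss50, Ly6k, Esx1 and Meioc. Kit-rich cells included 51 cells of low RNA content (median 4079 UMIs and 1.92% mitochondrial UMIs, against 20269 UMIs and 6.99% in the other 50). Of the somatic cells, 255 had a Sertoli-like, 186 a stromal-like, 94 a peritubular myoid-like and 35 a macrophage-like profile, and 26 cells with T cell and pericyte genes were left unnamed. Median depth ran from 22293 UMIs (SSC-like) over 19446 (progenitor-like) to 8530 (Kit-rich) and 8343 (Sertoli-like), so levels are given as UMIs of a gene per 1000000 UMIs of a class (CPM). Shares of cells are also given after thinning to 5000 UMIs. Thinning leaves out shallower cells, 35 of 101 Kit-rich and 2 of 112 SSC-like cells. Since the classes come from clustering the same transcripts, ratios between them are descriptions. Hells was among the 898 variable genes that separated germ from somatic clusters, and none of the 9 genes was among the 899 that divided the germ cells.

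On GRCm38, by GENCODE M21, Dnmt1 lies at chr9:20907209-20959888 on the minus strand, Uhrf1 at chr17:56303321-56323486 and Hells at chr19:38930915-38971051, both on the plus strand. Dnmt3a lies at chr12:3806007-3914443, Dnmt3b at chr2:153649450-153687730 and Dnmt3l at chr10:78041947-78063622, all on the plus strand. The Tet genes lie on the minus strand, Tet1 at chr10:62804570-62908996, Tet2 at chr3:133463679-133545139 and Tet3 at chr6:83362373-83459084. Uhrf1 and Hells overlap no other annotated gene. On the same strand Dnmt1 overlaps Mir7081, Tet1 overlaps Gm48353 and Gm26479, and Tet3 overlaps Mir6374 and 5430434F05Rik. Each de novo gene has an opposite-strand neighbour inside its span or at its end (Dnmt3aos, Dnmt3bos and, for Dnmt3l, Aire), as have Tet2 and Tet3, and reads of such partners would add to a gene if strand had been ignored in counting, which the sources used here do not state. Counts at the 3' end do not tell isoforms of any of these genes apart.

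The replication-linked genes share short promoter words with other S phase genes. RefSeq promoter windows of GRCm38.p6, 250 bases before to 50 bases after each annotated start, were searched on both strands for the E2F-like words TTTCCCGC, TTTCGCGC, TTTGCCGC and TTTGGCGC. Of 27025 genes with a window, 2.60% held a word, as did 38.7% of 31 genes of an S phase list and 5% of 40 genes of a G2/M list. All 3 replication-linked genes had a word in 1 of their windows, at position -219 from the start in Dnmt1, -185 in Uhrf1 and -62 in Hells, and Dnmt1 had a second one at position 34. No matches overlapped. The windows of the de novo genes (7 windows) and of the Tet genes (3 windows) held none. The stretches of 30 bases around these words are shown because the words were found in the replication-linked genes and in no other member, with the word in capitals:
Dnmt1: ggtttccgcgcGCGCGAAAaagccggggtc
Uhrf1: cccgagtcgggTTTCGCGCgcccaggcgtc
Hells: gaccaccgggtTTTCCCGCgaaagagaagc
The Dnmt1 stretch (chr9:20952824-20952853, minus strand) carries the word on the opposite strand and lies in the annotated 5' UTR of transcript Dnmt1-201. The Uhrf1 stretch (chr17:56304117-56304146, plus strand) lies in no annotated UTR, and the Hells stretch (chr19:38930917-38930946, plus strand) lies in the 5' UTR of Hells-201. A match describes the letters in the window and no binding was measured.

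**Figure D1:**
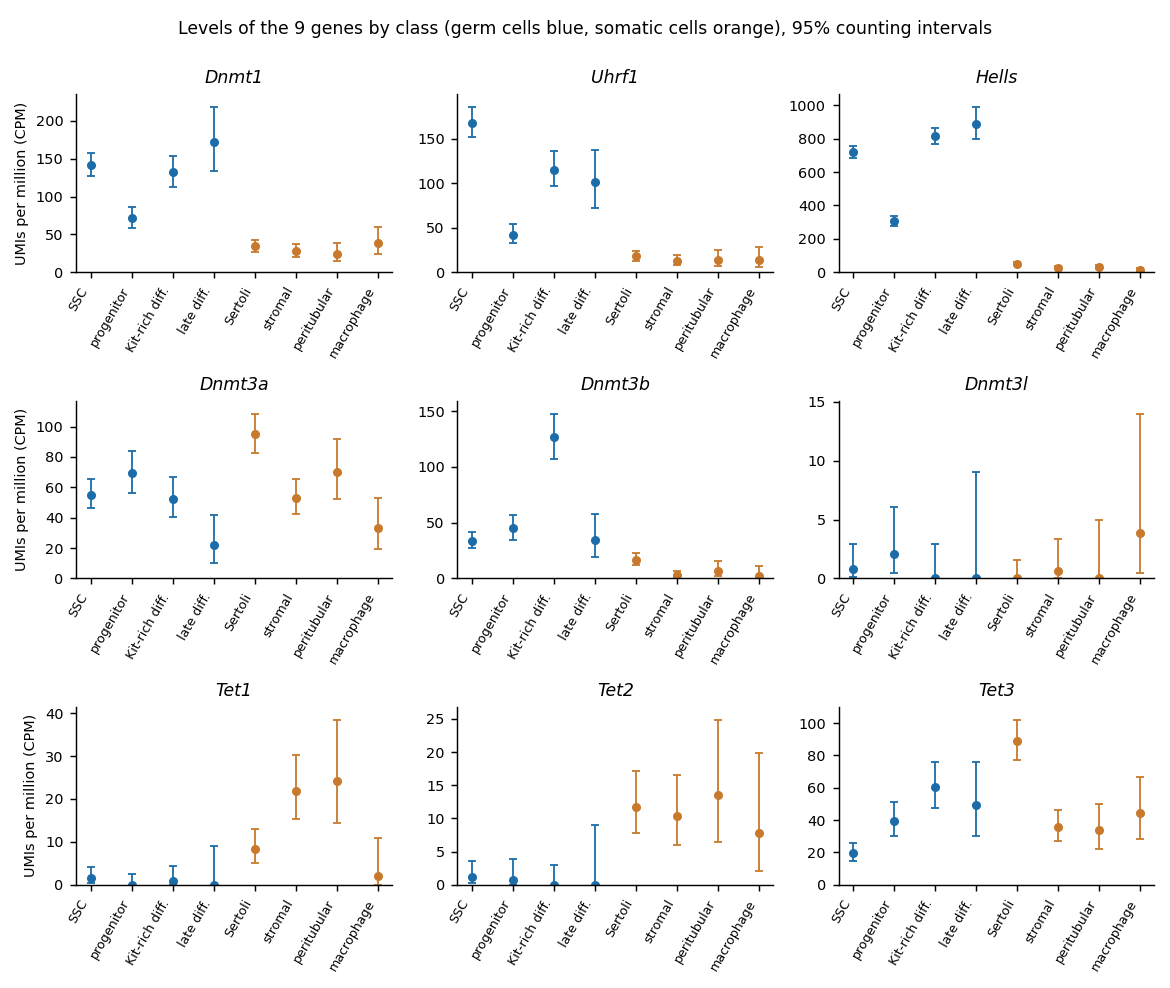
Level of each gene by cell class, as CPM on its own axis for each gene, with exact 95% Poisson intervals (counting error only, 1 library). Hells, Dnmt1 and Uhrf1 are high in germ classes with a minimum in progenitor-like cells (308, 71.2 and 42.2 CPM), Dnmt3b peaks in Kit-rich cells (126 CPM), Tet3 in Sertoli-like cells (88.9 CPM) and Tet1 in stromal-like and peritubular myoid-like cells (21.9 and 24.3 CPM).

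Dnmt1, the maintenance methyltransferase, stood at 142 CPM in SSC-like cells (346 UMIs, interval 127 to 157), 71.2 in progenitor-like, 132 in Kit-rich and 172 in late differentiating-like cells. Uhrf1, its recruiter, stood at 168, 42.2, 115 and 101 CPM in the same order. Hells, the remodeller, stood at 721, 308, 815 and 891 CPM. All 3 genes were lowest in the progenitor-like cells, where the log2 ratio over SSC-like cells was -0.99 for Dnmt1 (-1.32 to -0.67), -1.99 for Uhrf1 (-2.41 to -1.60) and -1.23 for Hells (-1.38 to -1.08). Together the 3 genes fell from 1031 to 421 CPM, a log2 ratio of -1.29. Uhrf1 and Hells passed a 2-fold fall, which 5.99% of the 9586 genes with at least 20 UMIs did, and Dnmt1 came just short of it. Over 17 alternatives the ratio was -1.27 to -0.51 for Hells and -2.08 to -0.995 for Uhrf1, so both kept their direction but not always the 2-fold fall. The cell cycle lists were lower in the same cells. The S phase list, used without Uhrf1 and Hells, dropped from 4111 to 2260 CPM, with 20 of its 42 genes down at least 2-fold and none up. Of 44 G2/M genes, 43 were tested and 27 were down, among them Top2a, the replication-associated topoisomerase, with 286 and 45.6 CPM. The part of the cell cycle in the fall of the maintenance genes was not tested. With the members and the cell cycle genes left out of clustering the ratio of the 3 genes was -1.06, and with germ cells chosen by a UMI of Ddx4 or Dazl it was -0.64.

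Between SSC-like and differentiating-like cells the summed level of the replication-linked genes differed little. It was 1087 CPM in the latter, and the log2 ratio over SSC-like cells 0.08 with an interval of -0.01 to 0.17. The members did not keep one direction. Dnmt1 gave 0.00 (-0.24 to 0.25), Uhrf1 was lower at -0.59 (-0.85 to -0.33) and Hells slightly higher at 0.21 (0.11 to 0.31), although with finer clusters (resolution 1.2) Hells gave -0.017. None of the 3 passed a 2-fold change in this comparison. In the order of the 7 named classes, Dnmt1 did not differ between differentiating-like and SSC-like cells beyond counting error, whereas Uhrf1 was higher in SSC-like than in differentiating-like cells, and Hells the reverse.

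Somatic levels of the replication-linked genes were far lower than in SSC-like and differentiating-like cells. Progenitor-like cells lay nearer, with log2 ratios over the next class in order of 0.88 for Dnmt1 (macrophage-like, 0.18 to 1.65) and 1.24 for Uhrf1 (Sertoli-like, 0.65 to 1.85). For Hells it was 2.57 (Sertoli-like, 2.27 to 2.87). Dnmt1 stood at 34.0 CPM in Sertoli-like, 28.0 in stromal-like, 24.3 in peritubular myoid-like and 38.8 in macrophage-like cells, and these 4 neighbours in the order did not differ beyond counting error. Uhrf1 stood between 12.8 and 17.9 CPM there, also without a difference between neighbours. Hells was higher in Sertoli-like cells (51.8 CPM) than in peritubular myoid-like cells (28.4 CPM), followed by stromal-like (25.6 CPM) and macrophage-like cells (13.6 CPM). Germ over somatic cells gave a log2 ratio of 4.12 for Hells (3.91 to 4.33), 2.87 for Uhrf1 (2.54 to 3.21) and 1.95 for Dnmt1 (1.71 to 2.20). In this comparison 4 of 8 members tested were at least 2-fold higher in germ cells, Dnmt1, Uhrf1, Hells and Dnmt3b, and 2, Tet1 and Tet2, at least 2-fold lower, beside 25.3% of all genes tested higher and 28.7% lower. Free RNA limits how low a somatic level can be read. The 6 germ markers (Ddx4, Dazl, Zbtb16, Sohlh1, Taf4b and Tdrd1) stood in somatic cells at 1.86% to 9.78% of their germ level. Hells, at 5.77%, lay above 5 of them (at most 4.73%) and below Taf4b, the highest, whereas Uhrf1 (13.7%) and Dnmt1 (25.9%) lay above all 6. In Sertoli-like cells 5 markers stood at 1.196% to 5.02% and Taf4b at 13.7%, with Hells at 8.01%, Uhrf1 at 15.1% and Dnmt1 at 27.6%. The part of free RNA in the somatic Hells level was not tested.

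The named classes were then each divided at the median share of UMIs in the S phase list, into S-rich and S-poor cells, to see which of the genes follow S phase within a class. In Sertoli-like cells the 3 replication-linked genes followed it closely. Dnmt1 stood at 51.6 CPM in 128 S-rich and 12.5 CPM in 127 S-poor cells, Uhrf1 at 29.4 and 3.86 CPM, and Hells at 80.2 and 17.4 CPM. The log2 ratio of the 3 genes together was 2.26 (1.73 to 2.82) in Sertoli-like, 1.91 in stromal-like, 1.43 in peritubular myoid-like and 2.11 in macrophage-like cells. In Sertoli-like cells the ratio was 0.23 for Dnmt3a (-0.17 to 0.63) and 0.35 for Tet3 (-0.07 to 0.78), both within counting error of no change, and 1.26 for Dnmt3b (0.18 to 2.46) on 29 and 10 UMIs. The 4 of 7 members tested that passed 2-fold, the 3 replication-linked genes and Dnmt3b, compare with 4.96% of all genes tested, while no member and 0.983% of all genes were 2-fold lower in S-rich cells. The G2/M list rose with the S list in these cells, 41 of 42 genes by at least 2-fold, and the division does not tell these phases apart. A Sertoli-like cluster of 45 cells led by Lockd, in which the G2/M list reached 9740 CPM, gave log2 ratios over the largest Sertoli-like cluster of 1.81 for Uhrf1, 1.31 for Hells, 1.04 for Dnmt1, 1.28 for Dnmt3b (0.10 to 2.46) and 0.06 for Dnmt3a. Over the remaining Sertoli-like cluster, of 78 cells, the 3 replication-linked genes together gave 0.31 (-0.15 to 0.77).

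**Figure D2:**
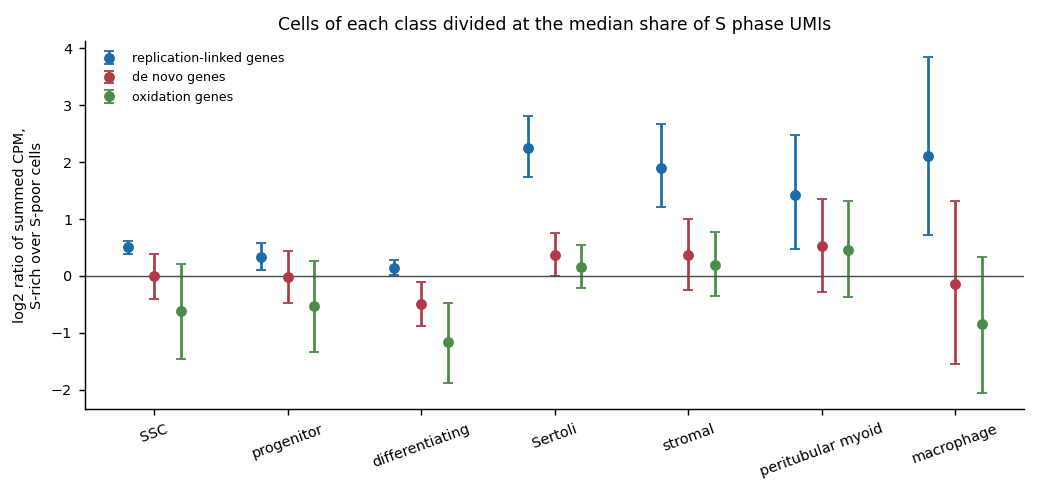
Log2 ratio of S-rich over S-poor cells within each class, for the replication-linked, de novo and oxidation genes, with exact 95% intervals for counting error only. The replication-linked genes lie between 0.15 and 0.51 in the 3 germ classes and between 1.43 and 2.26 in the 4 somatic classes.

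In germ cells the same genes moved much less with the S phase list. Over 163 S-rich and 161 S-poor germ cells the log2 ratio was 0.47 for Dnmt1 (143 and 103 CPM), 0.61 for Uhrf1 (143 and 93.9 CPM) and 0.22 for Hells (695 and 599 CPM). No member passed 2-fold in either direction, where 1.08% of all genes were higher and 2.19% lower. By class the ratio of the 3 genes together was 0.51 (SSC-like), 0.34 (progenitor-like) and 0.15 (differentiating-like). The levels in S-poor germ cells stayed high: Hells stood at 610 CPM in S-poor SSC-like cells, above the 80.2 CPM of S-rich Sertoli-like cells. The list itself divided germ cells less, at 5161 against 2957 CPM in SSC-like cells, than Sertoli-like cells, at 1909 against 702 CPM. The G2/M list had a median log2 ratio of S-rich over S-poor cells of -0.37 in germ cells and 2.66 in Sertoli-like cells. S-poor germ cells and S-poor Sertoli-like cells are therefore not alike in their G2/M transcripts. In differentiating-like cells the S-rich cells were also shallower (median 9186 against 15141.5 UMIs) and held more low-RNA cells (29 against 22) and more late cells (23 against 9). Divided by the G2/M list instead, the ratio of the 3 replication-linked genes in germ cells was -0.05.

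Because the germ cells carried more S phase transcripts (3816 CPM, against 1244 CPM in somatic cells), the genes were also expressed per 100 UMIs of the S phase list, a scale chosen after the levels had been seen. On it Dnmt1 was nearly level across the testis, with 3.44 UMIs in SSC-like, 3.15 in progenitor-like, 2.95 in Kit-rich, 3.11 in late, 2.49 in Sertoli-like, 2.54 in stromal-like and 2.38 in peritubular myoid-like cells. Its log2 ratio of germ over somatic cells fell from 1.95 per UMI to 0.33 (0.09 to 0.58) per S list UMI. Uhrf1 kept a ratio of 1.25, and within germ cells it was highest in the SSC-like class with 4.09 UMIs, against 1.87 (progenitor-like), 2.58 (Kit-rich) and 1.82 (late). Hells stayed apart, with 13.6 UMIs in progenitor-like, 17.5 in SSC-like and 18.2 in Kit-rich cells against 3.80 in Sertoli-like and 2.32 in stromal-like cells, and a germ over somatic ratio of 2.50 (2.29 to 2.71). The order Dnmt1, Uhrf1, Hells held in all 17 alternatives run, in which the ratios were 0.32 to 0.48, 1.07 to 1.39 and 2.41 to 2.70.

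**Figure D3:**
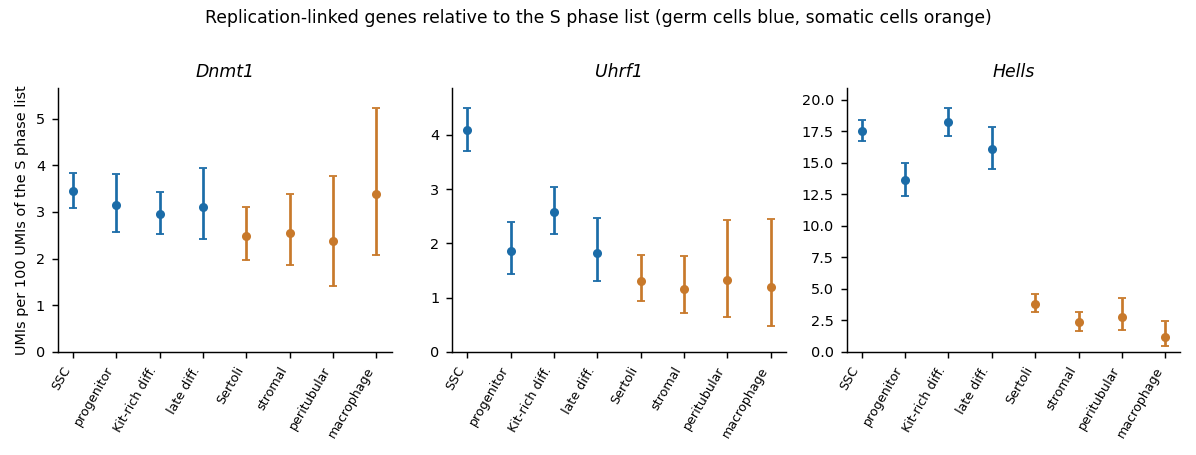
UMIs of Dnmt1, Uhrf1 and Hells per 100 UMIs of the S phase list in each class (germ cells blue, somatic cells orange), with exact 95% intervals for counting error only. Dnmt1 lies between 2.38 and 3.44 in all classes, whereas Hells lies between 13.6 and 18.2 in germ and between 1.19 and 3.80 in somatic classes.

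The de novo methyltransferases did not behave alike. Dnmt3b stood at 33.9 CPM in SSC-like cells (83 UMIs, interval 27.04 to 42.1), 44.9 in progenitor-like cells, 126 in Kit-rich cells (159 UMIs, interval 108 to 148) and 34.5 in late differentiating-like cells (14 UMIs, interval 18.8 to 57.8). Kit-rich cells thus stood apart, with a 3.73-fold difference between Kit-rich and SSC-like cells (2.84 to 4.92), and the late cells gave a log2 ratio over SSC-like cells of 0.02 (-0.91 to 0.85), though the late class depends on the cluster boundary. A UMI of Dnmt3b was found in 58 of 101 Kit-rich cells (57.4%) and 53 of 112 SSC-like cells (47.3%). After thinning it was found in 42.4% of 66 and 16.4% of 110 cells, with 33 low-RNA Kit-rich cells among those left out. In stromal-like cells, taken as background, the shares were 2.69% and 2.33%, and the stromal-like level of 3.05 CPM was 5.27% of that in germ cells, within the 1.54% to 9.58% of the germ markers. Sertoli-like cells had more, 17.0 CPM or 29.4% of the germ level, above all 6 germ markers there. Within the Kit-rich cells, Dnmt3b stood at 143 CPM in the 50 cells of ordinary depth and at 61.7 CPM in the 51 low-RNA cells.

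Dnmt3a, the other de novo enzyme, differed little between SSC-like, progenitor-like and Kit-rich cells, and its late level depends on the cluster boundary. Its level was 55.2 CPM in SSC-like, 69.1 in progenitor-like, 52.5 in Kit-rich and 22.2 CPM in late cells (9 UMIs). Sertoli-like cells had the highest level of all classes, 94.96 CPM, and macrophage-like cells 32.9 CPM. No pair of neighbours in the order of the 7 classes differed beyond counting error, but classes farther apart did, with log2 ratios for Sertoli-like cells of 0.78 over SSC-like (0.47 to 1.10) and 0.84 over stromal-like cells (0.48 to 1.22). Germ over somatic cells gave -0.36 (-0.58 to -0.14), where Dnmt3b gave 2.55 (2.12 to 2.99). Dnmt3l, the cofactor of both enzymes, was represented by 9 UMIs in kept cells: 2 in SSC-like, 3 in progenitor-like, 1 in stromal-like, 2 in macrophage-like and 1 in the unnamed cells. None of the 133 differentiating-like cells had one, an upper interval bound of 2.74% of cells with a detected UMI. At so few UMIs this does not bound the share of cells that express the gene.

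**Figure D4:**
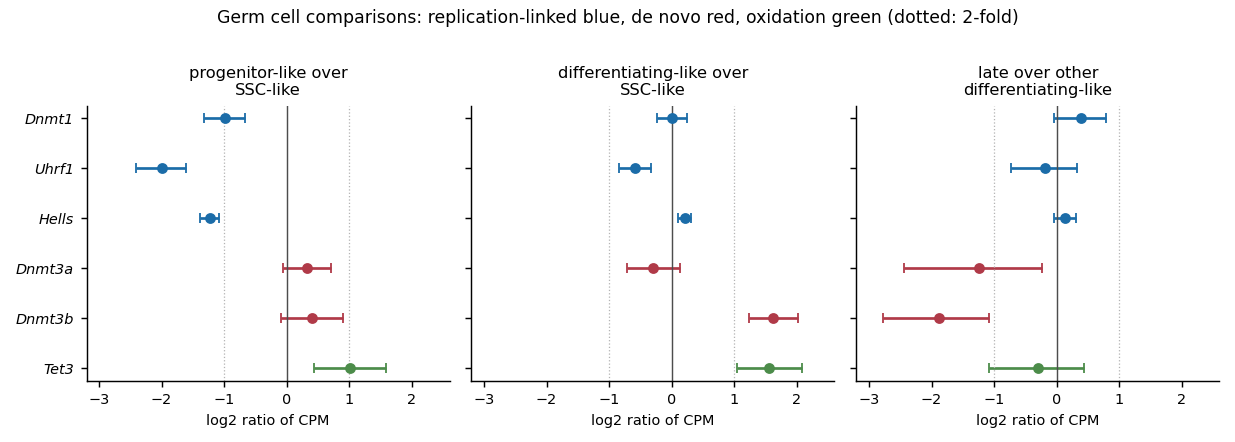
Log2 ratios between germ classes for each gene, with exact 95% intervals for counting error only. In differentiating-like over SSC-like cells Dnmt3b and Tet3 lie at 1.62 and 1.56, and in progenitor-like over SSC-like cells Dnmt1, Uhrf1 and Hells lie at -0.99, -1.99 and -1.23.

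Over all differentiating-like cells the log2 ratio over SSC-like cells was 1.62 for Dnmt3b (1.23 to 2.01) and 1.56 for Tet3 (1.04 to 2.09), against -0.29 for Dnmt3a (-0.72 to 0.13). These were the 2 of 6 members tested that were at least 2-fold higher, as were 8.05% of all 9797 genes, and no member was at least 2-fold lower, as were 9.23%. Dnmt3b gave 0.92 to 2.24 over 17 alternatives, the lowest after thinning, which leaves out 36 of the 133 cells as too shallow. With the low-RNA cells left out it was 1.70. Late over other differentiating-like cells gave -1.88 for Dnmt3b (-2.78 to -1.09) and -1.24 for Dnmt3a (-2.43 to -0.23), the 2 of 6 members at least 2-fold lower beside 13.6% of all genes, with none at least 2-fold higher beside 10.2%. The replication-linked genes gave 0.13 (-0.02 to 0.28) in the same cells. This contrast depended on where the late cells ended: under 3 alternatives the ratio was 1.18 to 3.19 for Dnmt3b and 0.52 to 1.15 for Dnmt3a. In these the cells left as other differentiating-like were 85.7% to 89.4% low-RNA cells, against 50.5% here.

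Tet3, the dioxygenase best known from the zygote, was the main member of its family found in germ cells. It stood at 19.6 CPM in SSC-like cells (48 UMIs), 39.4 in progenitor-like, 60.4 in Kit-rich and 49.2 in late cells. Its level rose from the SSC-like class on, with log2 ratios over SSC-like cells of 1.01 in progenitor-like (0.43 to 1.59), 1.62 in Kit-rich (1.08 to 2.17) and 1.33 in late cells (0.50 to 2.11). Late over Kit-rich cells gave -0.30 (-1.08 to 0.43), within counting error, and late over other differentiating-like cells -0.78 to 3.60 over the alternatives. Tet3 was the single member of 6 with a 2-fold rise in progenitor-like cells, where 3.11% of all genes rose that far, and lay just past that limit. Over 17 alternatives its ratio was 0.72 to 2.32 in progenitor-like cells, under 2-fold in some of them, and 0.94 to 3.03 in differentiating-like cells. Tet3 was uneven with RNA content. The 51 low-RNA Kit-rich cells held 0 of its UMIs, and the other 50 held 76 (76.1 CPM). With the 0 set to a floor of 3 counts (11.6 CPM) this is a 6.58-fold difference. The exact interval for low-RNA over other cells ends at a log2 ratio of -2.38, a ratio of 0.19. The other members were lower in the low-RNA cells too, Uhrf1 with 50.2 against 132 CPM, Hells with 513 against 894, Dnmt3a with 19.3 against 61.1 and Dnmt3b with 61.7 against 143, except that Dnmt1, at 116 and 136 CPM, did not differ beyond counting error. Tet3 also went against the S phase list in germ cells, with 25.5 CPM in S-rich and 46.9 CPM in S-poor cells and a log2 ratio of -0.88 (-1.32 to -0.45). Within differentiating-like cells, where the low-RNA cells are unevenly divided, it was -1.14, in SSC-like cells -0.50 (-1.39 to 0.38), and in germ cells divided by the G2/M list 0.02. Over all germ cells divided by the S phase list, leaving out the low-RNA cluster kept the ratio of Tet3 within -1.32 to -0.45. Within differentiating-like cells the part of the low-RNA cells was not tested.

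The highest level of Tet3 was in Sertoli-like cells, 88.9 CPM (77.1 to 102), where 49.4% of cells had a UMI and 34.5% after thinning. The next class in order, differentiating-like cells with 57.7 CPM, was lower beyond counting error, and macrophage-like, progenitor-like, stromal-like and peritubular myoid-like cells followed at 44.6 to 33.8 CPM without a difference between neighbours. Tet1 and Tet2, the other dioxygenases, were mostly somatic. Tet1 stood at 24.3 CPM in peritubular myoid-like, 21.9 in stromal-like and 8.28 in Sertoli-like cells, and at 0.90 CPM in germ cells, where 5 of 324 cells (1.54%) had a UMI. That germ level is 4.10% of the stromal one, where 7 stromal markers stood in germ cells at 0.11% to 1.92%. It is 3.70% of the peritubular myoid-like level, where 6 markers stood at 0.15% to 3.33%. On a count of 5 the gap to the highest marker is not beyond counting error. Tet2 varied little between somatic classes, from 7.75 CPM in macrophage-like to 13.5 CPM in peritubular myoid-like cells, and 4 of its UMIs were in germ cells (0.72 CPM). That is 6.95% of the stromal-like Tet2 level, higher than the stromal markers, but on a count of 4 not beyond counting error for the highest of them. Germ over somatic cells gave -3.96 (-5.62 to -2.67) for Tet1, -3.91 (-5.83 to -2.48) for Tet2 and -0.70 (-0.96 to -0.44) for Tet3. Sertoli-like and stromal-like cells held all 3 genes in different proportions, with log2 ratios of Sertoli-like over stromal-like cells of 1.31 for Tet3 (0.88 to 1.75), -1.41 for Tet1 (-2.29 to -0.57) and 0.18 for Tet2 (-0.74 to 1.15).

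Genes that work with these enzymes were counted from 4 lists, and where a count was small its genes were named after their values had been seen. Of 9 maintenance partners, 3 were at least 2-fold lower in progenitor-like than in SSC-like cells and none higher, beside 5.99% and 3.11% of all genes. The median log2 ratio was -0.70 beside -0.07 over all genes tested. The 3 partners were Pcna, the sliding clamp of replication (60.8 against 148 CPM), the DNA ligase Lig1 (104 against 272 CPM) and 2810417H13Rik (Pclaf, a PCNA-binding factor, 14.5 against 142 CPM). In differentiating-like over SSC-like cells 1 of the 9 was lower, 2810417H13Rik with 57.1 CPM, and none higher, beside 9.23% and 8.05% of all genes. Lig1 had the highest ratio, 0.27 (0.11 to 0.44), followed by the deubiquitinase Usp7 at 0.15. The Uhrf1 paralogue Uhrf2 went lower, at -0.50 (-0.91 to -0.10). Pcna and Cdca7 belong to the S phase list and were left out of the S phase division. Of the other 7 partners 6 were tested in Sertoli-like cells, and 2 were higher in S-rich cells, Lig1 and 2810417H13Rik (72.3 against 21.2 and 106 against 13.5 CPM), with a median of 0.27 beside 0.06 over all genes, of which 4.96% were higher. In germ cells 1 of 7 was, 2810417H13Rik at 1.36, with a median of 0.35 and 1.08% of all genes higher. Germ cells had at least 2-fold more than somatic cells of 4 of the 9 partners, Pcna, Lig1, Cdca7 and Cdca7l, and at least 2-fold less of none, beside 25.3% and 28.7% of all genes, with a median of 0.83 beside 0.04. Cdca7, the zinc finger protein that brings Hells to chromatin, stood at 170 CPM in germ and 27.4 CPM in somatic cells, and its paralogue Cdca7l at 59.6 and 5.04 CPM, log2 ratios of 2.63 and 3.56 beside the 4.12 of Hells.

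Among 10 de novo and imprint cofactors, 7 could be tested in differentiating-like over SSC-like cells, with none higher, 1 lower (Piwil4, a PIWI protein of piRNA-guided silencing, on 7 and 21 UMIs) and a median of 0.01, beside 0.08 over all genes. Of all genes 8.05% were at least 2-fold higher and 9.23% lower. The histone H3K9 methyltransferase genes Ehmt2 and Ehmt1 had the highest ratios, 0.62 and 0.50, and Setdb1, also an H3K9 methyltransferase, gave -0.27. Morc1, needed for silencing of transposons in male germ cells, was lower at -0.89 (-1.67 to -0.17), and stood at 24.5 CPM in SSC-like against 0.93 CPM in somatic cells. Of 14 demethylation and repair partners 13 were tested, with 3 higher, 1 lower and a median of -0.17, beside 8.05% and 9.23% of all genes. The 3 were the stress-response genes Gadd45g (24.0 against 7.36 CPM), Gadd45b (31.9 against 10.6 CPM) and Gadd45a (41.5 against 17.2 CPM), with log2 ratios of 1.71, 1.58 and 1.27. Ogt, the O-GlcNAc transferase that binds Tet proteins, gave -0.88, and Idh2, the mitochondrial isocitrate dehydrogenase and the gene that was lower, -1.23. Against somatic cells, the germ cells had at least 2-fold more of 3 of the 14, Mbd4, Apex1 and Parp1, which act in DNA repair, and at least 2-fold less of 5, Ogt, Cxxc4, Cxxc5, Idh1 and Idh2, not far from the 25.3% and 28.7% of all genes. Ogt stood at 50.6 CPM in germ and 203 CPM in somatic cells, and Idh2 at 10.1 and 164 CPM. In differentiating-like over SSC-like cells none of 6 tested genes from the methyl-CpG-binding protein families changed 2-fold, beside 8.05% of all genes higher and 9.23% lower. Their median was -0.06. Mbd3 gave 0.30, Mbd1 0.08, Zbtb33 -0.32 and Mbd2 -0.88 (-1.68 to -0.14).

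Across the 7 named classes the genes nearest to each member in log2(CPM + 1) differed by group. As a description over 7 classes that share a library, Dnmt1 was nearest to Mcm6, Ddx39 and Cdca5 (Pearson r of 0.998 for Mcm6), and Uhrf1 to Mcm4, Ppm1g and Mcm3 (0.99 for Mcm4). Both thus had subunits of the replicative helicase among their nearest genes, but 173 genes stood at 0.95 or more for Dnmt1 and 81 for Uhrf1. Hells was nearest to Snrpb, Anp32b and Exosc2, but 498 of 6530 genes were as close as 0.95 or more, so a high value is common for a pattern of germ against somatic cells. Dnmt3b was nearest to Zfp131, Ccnl2 and Iqcb1 (174 genes at 0.95 or more). Dnmt3a, whose nearest gene was Synm at 0.97, had 5 genes at that level. Tet1 was nearest to Atf4, Smarca2 and 6030408B16Rik, Tet2 to Acadsb, Gorasp2 and Spcs1, and Tet3 to Cryzl1, Znhit2 and Rabl6 at 0.92 or less, with no gene at 0.95. Between members the replication-linked genes gave 0.94 to 0.98 with each other. Dnmt3b gave 0.94 with Hells, 0.83 with Uhrf1 and 0.82 with Dnmt1, but 0.25 with Dnmt3a.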

How the data were processed

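The study made 1 wild-type 10x Chromium library, with 1 gene by barcode matrix. Its values are raw UMI counts, deposited by the authors after alignment to mm10 and counting with Cell Ranger 2.1.0. The submitters' processing notes also name Seurat, and the annotation release is not given in the sources used here. The genes and lists described were chosen with earlier results of these data known.

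Barcodes with under 500 genes (10), with 10% or more mitochondrial UMIs (36), or called doublets by Scrublet in scanpy 1.11.5 (4 of 970, at an expected rate of 0.01) were left out. The 4 calls are under 0.5% of barcodes, and doublets may remain. Cells were clustered with Seurat 5.3.0 in R 4.3.3 (genes in at least 3 cells, 14 principal components, resolution 0.5), and the germ cells were clustered again. Clusters were named from marker lists by mean log-normalized level, needing 3 detected markers, and 1 hemoglobin-rich barcode was left out when leading genes were ranked. UMIs were summed per class. CPM carry exact Poisson intervals and ratios exact conditional binomial intervals (95%, scipy 1.17.1), which cover counting error only. They were run on simulated Poisson counts, the model they assume, so that run checks the computation and not the spread between cells. For the fold of Tet3 between low-RNA and other Kit-rich cells, the count of 0 was given a floor of 3 counts. For the shares of all genes past 2-fold, a class with 0 UMIs of a gene was given 1 UMI. Members counted as changed had a CPM ratio of at least 2-fold among genes with at least 20 UMIs in both classes together. Shares of cells were also taken after thinning to 5000 UMIs, over the cells with at least that many. All 9 members are named. Of each partner list, the 2 genes with the highest and the 2 with the lowest ratio of differentiating-like over SSC-like cells among those with at least 50 germ UMIs are named, with Top2a as an example of the G2/M list and the 3 nearest genes by Pearson correlation among genes with at least 200 UMIs. Alternatives numbered 20 planned and 2 added after seeing the data (leaving out the low-RNA cluster, or the hemoglobin-rich barcode), and the scale per S list UMI was also added then. RefSeq windows matched all 9 members.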

Additional observations from a re-analysis of the deposited data

How the results depend on the processing

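Values are log2 ratios. No paired analysis was possible because there is 1 library. Of the values for the 3 gene groups (replication-linked, de novo, oxidation) under the alternatives, 286 stayed within the counting interval of the reported value, 37 moved outside it and 4 reversed. Of those for single genes, 643 stayed, 54 moved and 11 reversed, and per S list UMI 133 stayed and 2 moved. A value was counted as reversed only where the reported interval lay wholly above or below no change. Other changes of sign are among the values that stayed or moved. The share of all genes counted as changed depended on the threshold: with a limit of 1.5-fold, or with at least 100 UMIs per gene, the shares higher and lower ran from 3.79% to 19.9% and 4.71% to 16.5% (differentiating-like over SSC-like), 0.62% to 10.5% and 3.04% to 14.6% (progenitor-like over SSC-like), 5.38% to 22.2% and 8.45% to 23.4% (late over other), 23.6% to 35.4% and 24.6% to 35.4% (germ over somatic), 0.30% to 5.92% and 0.23% to 7.51% (S-rich germ cells), and 1.63% to 12.5% and 0.057% to 5.05% (S-rich Sertoli-like cells). Resolution 0.3 left no late cluster and no SSC-like class, so it gave no value for ratios between germ classes. The cause of the changes was not tested, and where the makeup of the cells is given it is a description. Free RNA, doublets and the spread between animals are not in the intervals, and genes with at most 4 UMIs in any germ class (Dnmt3l, Tet1 and Tet2) cannot be ordered at this depth.

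Differentiating-like over SSC-like cells gave with the main settings 0.08 for the replication-linked, 0.73 for the de novo and 1.37 for the oxidation genes. At resolution 1.2 these groups gave -0.21, 1.02 and 3.05, and Hells was reversed at -0.017. With each cell scaled to its own total the groups gave -0.028, 0.40 and 0.73. Progenitor-like over SSC-like cells gave for the replication-linked genes -0.92 with 20 principal components, -0.93 with variable genes by vst, -0.64 with germ cells by Ddx4 or Dazl, -1.06 with members and cell cycle lists kept from the clustering, -1.02 without a mitochondrial limit, -0.92 at resolution 1.2 and -0.78 with counts split between clustering and measurement. The de novo genes gave 0.37 with the main settings and 0.71 without a mitochondrial limit. The oxidation genes gave 0.83 with the main settings and 2.43 at resolution 1.2.

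Late over other differentiating-like cells depended most on the clusters. With the main settings this contrast gave 0.13 for the replication-linked, -1.66 for the de novo and -0.31 for the oxidation genes. Dnmt3a gave -1.24 and Dnmt3b -1.88. The de novo genes, Dnmt3a and Dnmt3b were reversed under the next 3 alternatives. With vst, with Ddx4 or Dazl and with split counts, in that order, the replication-linked genes gave 0.92, 0.85 and 0.86, the de novo genes 1.0, 0.96 and 2.31, the oxidation genes 3.03, 3.55 and 3.06, Dnmt3a 0.52, 0.53 and 1.15, and Dnmt3b 1.26, 1.18 and 3.19. Under these the late cells numbered 80, 77 and 90, and 85.7%, 89.4% and 88.2% of the other cells were low-RNA cells. With each cell scaled to its own total the replication-linked genes gave 0.41 and the oxidation genes 0.44.

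Germ over somatic cells gave 3.57 for the replication-linked genes with split counts and 3.57 after thinning. S-rich over S-poor germ cells gave for these genes 0.41 with vst, 0.59 with Ddx4 or Dazl, 0.40 without a mitochondrial limit, 0.14 at resolution 0.3, 0.41 at resolution 1.2, 0.54 with split counts and 0.41 between the highest and lowest tertiles. The de novo genes gave -0.24 with the main settings, -0.48 at resolution 0.3 and -0.53 between tertiles. With the main settings the replication-linked genes gave 0.30 and the oxidation genes -0.89. Divided by the G2/M list, the replication-linked genes were reversed at -0.050, as were Dnmt1 at -0.10, Uhrf1 at -0.069, Hells at -0.036 and Tet3 at 0.020. The oxidation genes gave -0.047. In Sertoli-like cells the G2/M list gave 1.5 for the replication-linked genes (2.26 with the main settings). Thinning gave -0.49 for the oxidation genes (0.16 with the main settings).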
